A study of Mus musculus with 8 samples.

Results

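Keratin-associated proteins, the products of the Krtap genes, were followed in mouse skin as 2 classes that differ in amino acid composition. The members were all probes whose RefSeq accession on the array belongs to a gene with a symbol starting with Krtap. This gave 64 of the 55681 probes on the array, for 50 genes, and each gene was read from 1 probe, that with the highest mean over the 8 arrays. The class came from the family number. Families 6, 7, 8, 16, 19, 20, 21 and 22 formed the high glycine-tyrosine class (15 genes, 22 probes), and all other families formed the sulfur class of high and ultrahigh sulfur proteins (35 genes, 42 probes). The RefSeq gene table listed 56 Krtap genes. The other 6 (Krtap4-13, Krtap6-3, Krtap16-1, Krtap27-1, Krtap28-13 and Krtap29-1) matched no probe by accession and were not analysed here.

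The study asked which transcripts accompany patchy hair loss in C57BL/6N mice with an edited Cchcr1 gene. RNA of 8 skin samples was hybridised to single-colour Agilent arrays, 1 array per sample. The groups were hair loss skin of Cchcr1 mutants (2 samples), normal skin of Cchcr1 mutants (4 samples) and normal skin of wild type mice (2 samples). Sample titles add a number and a letter. Hair loss 1, normal skin 1 and normal skin 2 carry Mutant097, hair loss 2, normal skin 3 and normal skin 4 carry Mutant113, and wild type 1 and 2 both carry Wild001. The letter is S in hair loss, B in normal skin 1 and 3 and wild type 1, and A in normal skin 2 and 4 and wild type 2. What the number and the letter mark, the age of the mice and their stage of the hair cycle are not explained in the labels. The labels also do not say whether the samples come from separate animals, so p-values measure only the spread between these samples. Genotype and number cannot be told apart in comparisons with wild type. Nor can slide row and number be told apart in the mutant normal skin. The 8 arrays shared 1 slide, with normal skin 1 and 2 in row 1 and normal skin 3 and 4 in row 2. Both hair loss arrays were in row 1 and both wild type arrays in row 2. Slide row and group therefore cannot be separated when hair loss is set against wild type. Within Mutant113 the same holds for hair loss against normal skin, while the Mutant097 arrays were all in row 1.

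Hair is built in the matrix and cortex of the growing follicle, where keratin filaments are assembled first and keratin-associated proteins are then laid down between them. Sulfur-rich members are crosslinked to the keratins by disulfide bonds, and those of families 5 and 10 are known from the hair cuticle. High glycine-tyrosine members are small proteins of the hair cortex, rich in glycine and aromatic residues. Both classes are made only in growing follicles, so in resting skin their transcripts are scarce. Skin was measured as bulk RNA, in which fewer cells of a type and less RNA per cell cannot be told apart.

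Values are log2 levels, with the 75th percentile of the same array at 0. They were compared for 1 gene, or 1 class, across samples, since different probes differ in brightness for the same amount of RNA. The 75th percentile of intensity ran from 83.2 to 212 over the arrays, each array had 25470 to 30254 probes well above background, and 0 spots were saturated. Cchcr1 itself lay between -0.07 and 0.49 in all 8 samples, well above background on each, and its probe does not show whether the edit is present. Of the 50 Krtap genes, 49 were well above background on at least 2 of the 8 arrays and were tested with limma among 30471 probes. The remaining one, the sulfur gene Krtap13, was not well above background on any array, with levels of -6.34 to -5.19.

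Promoter sequence shows how alike the members are just before their starts of transcription. RefSeq windows of 300 bases (250 before to 50 after the start, GRCm38.p6) were matched to 45 of the 50 genes. The letters TATAAA, the core of a TATA box, were present on either strand in 37 of these 45 windows (82.2%), against 13.6% of all 32851 windows of 27025 genes. On the gene's own strand, all letters lay within 45 to 11 bases before the start in 27 of 45 windows (60.0%). This held for 2.22% of all windows. By class this was 42.9% of the high glycine-tyrosine windows (6 of 14) and 67.7% of the sulfur windows (21 of 31). The share on either strand was 71.4% in the high glycine-tyrosine class (10 of 14) and 87.1% in the sulfur class (27 of 31). The forkhead core TGTTTA was found on either strand in 51.1% of the members' windows and 13.4% of all windows. The LEF/TCF core CTTTGA was found in 28.9% against 16%. The hair keratin motif CTTTGAAG, which contains the LEF/TCF core, was found in 15.6% against 1.66%. A match of letters is a description and not a measured binding site, and neighbouring Krtap genes are related copies, so the members are not independent.

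The 150 bases before the start are shown for 6 genes, 5′ to 3′ on the gene's strand, with TATAAA in capitals. Krtap16-3 and Krtap14 were among the genes named by rule. Krtap8-1, Krtap19-9b, Krtap3-1 and Krtap31-2 were chosen after their values were seen, because they stand for different patterns across samples. Krtap8-1 lies at chr16:89487953-89488102 (minus strand), Krtap16-3 at chr16:88962874-88963023 (minus), Krtap19-9b at chr16:88932265-88932414 (minus), Krtap14 at chr16:88826146-88826295 (minus), Krtap3-1 at chr11:99566631-99566780 (minus) and Krtap31-2 at chr11:99936141-99936290 (plus). The first base of TATAAA is 29 bases before the start in Krtap8-1, 30 in Krtap16-3 and Krtap31-2, 31 in Krtap19-9b and 37 in Krtap3-1.
Krtap8-1: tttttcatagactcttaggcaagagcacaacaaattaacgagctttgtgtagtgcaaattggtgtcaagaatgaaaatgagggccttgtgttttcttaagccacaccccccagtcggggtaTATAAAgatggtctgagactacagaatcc
Krtap16-3: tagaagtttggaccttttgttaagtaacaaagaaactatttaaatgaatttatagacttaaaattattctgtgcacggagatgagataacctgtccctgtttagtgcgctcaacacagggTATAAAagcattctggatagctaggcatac
Krtap19-9b: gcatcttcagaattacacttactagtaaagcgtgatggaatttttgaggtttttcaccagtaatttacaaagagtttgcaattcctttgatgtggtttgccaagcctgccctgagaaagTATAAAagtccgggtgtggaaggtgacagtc
Krtap14: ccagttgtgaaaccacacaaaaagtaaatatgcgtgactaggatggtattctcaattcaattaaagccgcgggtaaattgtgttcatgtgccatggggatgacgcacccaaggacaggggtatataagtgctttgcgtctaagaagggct
Krtap3-1: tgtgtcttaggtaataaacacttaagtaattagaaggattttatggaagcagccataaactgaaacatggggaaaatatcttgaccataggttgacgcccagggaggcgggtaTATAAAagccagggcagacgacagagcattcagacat
Krtap31-2: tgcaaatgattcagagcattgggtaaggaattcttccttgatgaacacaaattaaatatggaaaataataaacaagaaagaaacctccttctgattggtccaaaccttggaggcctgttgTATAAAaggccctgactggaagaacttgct
The letters are not in the 150 bases shown for Krtap14.

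Levels of both classes differed more between the samples of mutant normal skin than between the samples of either other group. The median log2 level of the 15 high glycine-tyrosine genes was 8.17 in hair loss 1 and 6.80 in hair loss 2. It was 1.42, 4.72, 7.73 and 7.12 in normal skin 1 to 4, and -2.61 and -4.42 in wild type 1 and 2. The class was therefore lowest in wild type, low in both Mutant097 normal skin samples, and near the hair loss level in the Mutant113 normal skin. The median of the 35 sulfur genes was 5.83 and 4.71 in hair loss, 2.01, 2.29, 5.46 and 4.88 in normal skin 1 to 4, and -3.81 and -4.90 in wild type. Normal skin 1 and 2 were thus far apart in the high glycine-tyrosine class and close in the sulfur class. The median over all probes tested stayed between -0.39 and -0.34 in every sample. The median SD per gene over the 4 samples of mutant normal skin was 3.02 for high glycine-tyrosine genes, 1.68 for sulfur genes and 0.25 for all probes tested. Between the samples of hair loss it was 1.05 and 1.04 for the classes, and between those of wild type 0.53 and 0.53.

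**Figure D1:**
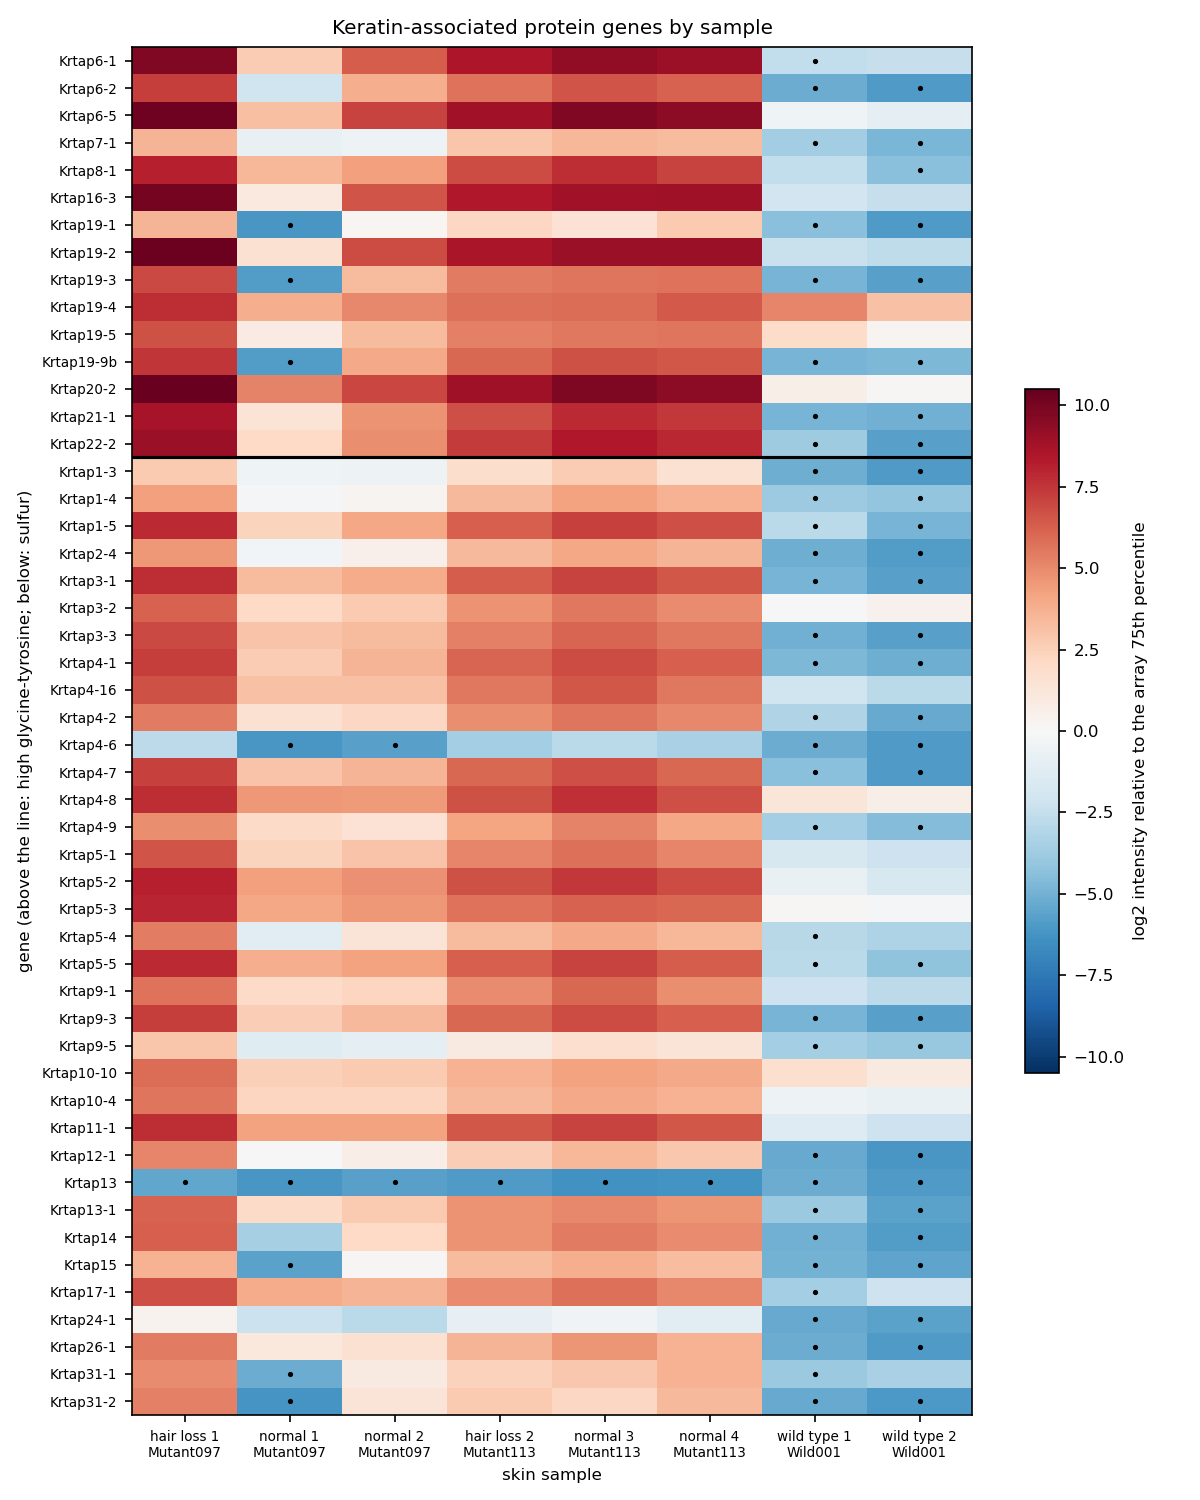
Heat map of the log2 level (0 is the 75th percentile of the array) of the 50 Krtap genes (rows, by class and family) in the 8 samples (columns), with a dot where the probe was not well above background. Wild type has the lowest class medians but not the lowest level in every gene. Normal skin 1 of Mutant097 has background values in 8 genes, 3 of them high glycine-tyrosine and 5 sulfur.

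**Figure D2:**
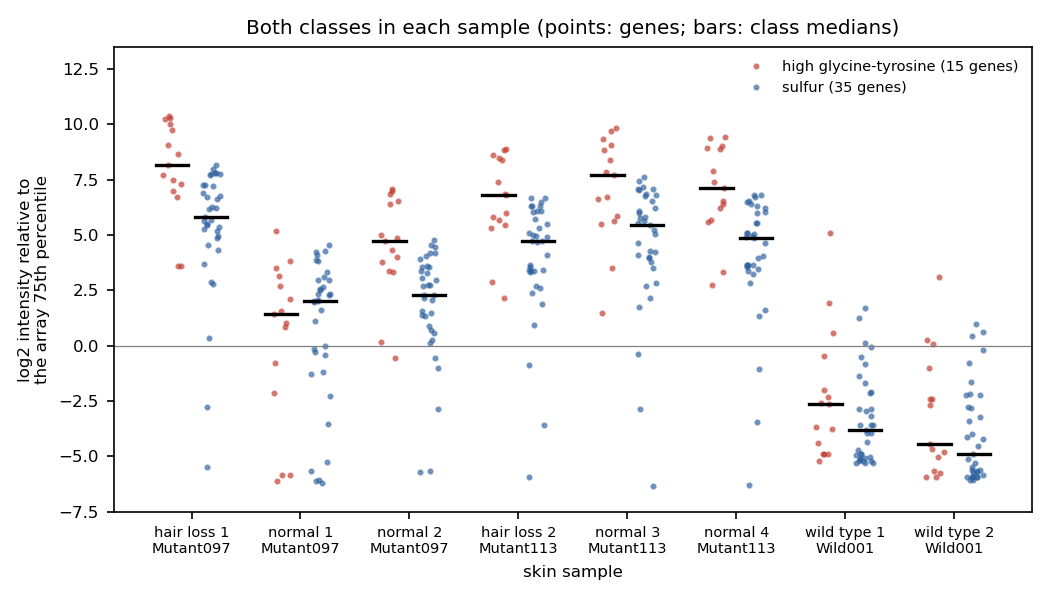
Log2 level of each Krtap gene (points) and the class median (bars) in each of the 8 samples, by class. The high glycine-tyrosine median is 1.42 in normal skin 1 and 4.72 in normal skin 2, while the sulfur medians of these samples are 2.01 and 2.29.

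The lesions were set against normal skin of the mutants to see whether transcripts of the hair shaft change in the patches. In neither class did hair loss stand apart from mutant normal skin. The median difference, hair loss minus mutant normal skin, was 2.37 for high glycine-tyrosine genes and 1.68 for sulfur genes, against -0.00 for all probes tested. Single-gene differences were above 0 in all 49 genes tested and in Krtap13, which was at background on every array. Yet 0 of the 49 genes tested were called at a limma adjusted p under 0.05, where 0% of all 30471 probes were called. The smallest adjusted p of a member was 0.931. At an unadjusted p under 0.05, 1581 probes (5.19%) passed, with 1 of the 63 Krtap probes tested, of the sulfur class, among them. It was not the probe from which its gene was read, so 0 Krtap genes passed. In 0 of the 50 genes did both hair loss samples lie above all 4 normal skin samples, against 5.79% of probes. With slide row as a block, which compares hair loss with Mutant097 normal skin only, the medians were 4.65 and 3.11, again with 0 calls. Without normal skin 1 they were 1.1 and 1.16, and without hair loss 1 they were 1.56 and 0.98.

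Krtap20-2, a high glycine-tyrosine gene, shows how the groups overlapped. Its log2 level was 10.37 and 8.89 in hair loss, 5.17 and 7.0 in normal skin of Mutant097, 9.83 and 9.40 in normal skin of Mutant113, and 0.59 and 0.09 in wild type. Hair loss 1 lay above every normal skin sample, while hair loss 2 lay below both normal skin samples of its own number. The difference was 1.78 (SE 1.24), with a limma adjusted p of 0.999. Krtap16-3 had the largest difference of its class among genes well above background in all 6 mutant samples, at 2.87 (SE 2.04). Among the sulfur genes that met the same condition the difference was largest for Krtap14, at 3.26 (SE 2.26), and smallest for Krtap4-9, at 1.29 (SE 1.0). Each of these errors is smaller than its difference, and none of the 3 genes was called.

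Within the title numbers the class medians were large and positive in Mutant097 and small and negative in Mutant113. In Mutant097 the hair loss sample exceeded both normal skin samples in all 49 genes tested, against 34.8% of all probes tested. It also did so in Krtap13, which was at background on every array. The median excess was 5.55 for high glycine-tyrosine genes and 3.80 for sulfur genes, with -0.03 for all probes. Normal skin 1 was not well above background in 8 members. With these raised to a floor, the dimmest signal marked as well above background on that array, the medians were 5.45 and 3.80. In Mutant113 the hair loss sample lay below both normal skin samples in 40 of 50 genes (14 high glycine-tyrosine and 26 sulfur), against 32.9% of probes. The medians there were -0.58 and -0.45, with 0.03 for all probes. One gene, Krtap13, exceeded both in Mutant113 (background 39.6%), but it was at background on every array. With 1 hair loss sample per number these are values without a test. In Mutant113 the hair loss sample was also in another slide row than the normal skin samples.

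The difference between the lesion effects (hair loss minus normal skin) of the numbers was tested in a model with each group and number as 1 level. Of the Krtap genes 0 were called, as were 2 of all probes tested (0.00656%), and the smallest adjusted p of a member was 0.0707. At an unadjusted p under 0.05 there were 40 Krtap genes, against 9.47% of probes. The difference, Mutant097 minus Mutant113, had a median of 6.32 for high glycine-tyrosine genes and 4.25 for sulfur genes, or 5.85 and 4.25 with that floor. Without normal skin 1 these medians were 4.0 and 3.95, with 0 genes called. Without normal skin 2 they were 7.80 and 4.43, with 11 called.

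**Figure D3:**
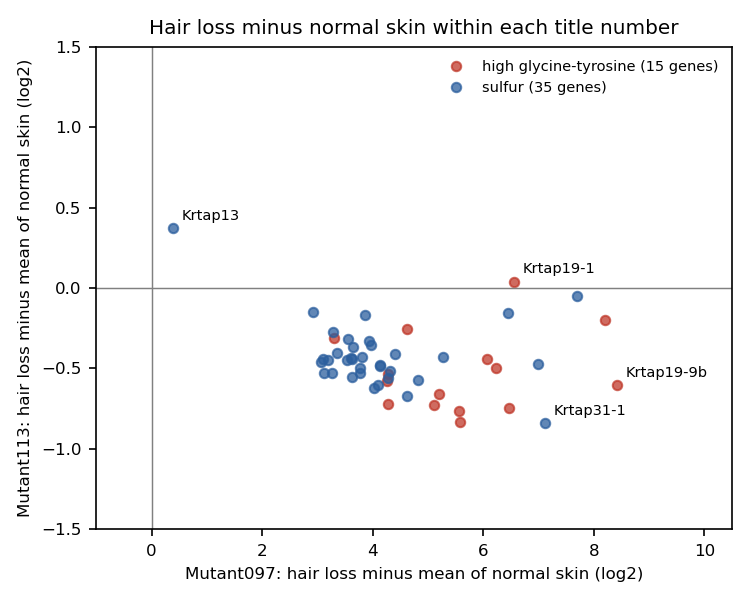
Scatter of the 50 Krtap genes, with hair loss minus the mean of the 2 normal skin samples in log2 units for Mutant097 (horizontal axis) and Mutant113 (vertical axis), coloured by class. Genes at background in normal skin 1 are drawn at their measured values. Every gene lies to the right of 0, most lie a little below 0 on the vertical axis, and the high glycine-tyrosine genes reach farther right.

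The normal skin samples of the 2 numbers differed from each other in nearly every member. Both Mutant113 normal skin samples lay above both Mutant097 normal skin samples in 49 of 50 genes (all 15 high glycine-tyrosine and 34 of 35 sulfur), against 24.2% of probes. The median difference was 4.61 and 2.83, or 4.56 and 2.83 with the floor. Of the tested members 3 were called higher in Mutant113 by limma (0.158% of all probes were), namely the high glycine-tyrosine gene Krtap7-1 and the sulfur genes Krtap1-4 and Krtap9-5, named after their values were seen. Krtap7-1 was 4.09 higher (SE 0.39, adjusted p 0.0433), Krtap1-4 was 3.89 higher (SE 0.28, adjusted p 0.0234) and Krtap9-5 was 2.69 higher (SE 0.25, adjusted p 0.0401), each in 2 of 2 samples against both others. At an unadjusted p under 0.05 there were 46 Krtap genes, against 15.7% of probes. Without normal skin 1, 3 or 4 there were 0 calls, and without normal skin 2 there were 14. Without normal skin 1 the medians of the classes were 2.61 and 2.56.

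Normal skin 1 and normal skin 2 share a number and a group, carry different letters, and differed in the high glycine-tyrosine genes. In 3 high glycine-tyrosine and 3 sulfur genes normal skin 1 was not well above background while normal skin 2 was, and their difference is a lower bound on the gap, taken against the same floor. In the sulfur genes Krtap4-6 and Krtap13 both samples were at background, and no difference is given. Normal skin 1 was lower in 15 of 15 high glycine-tyrosine genes, with a median difference of -3.71, and in 26 of 33 sulfur genes, with a median of -0.49. The median over all probes was -0.02. It was lower by more than 1 log2 unit in 13 high glycine-tyrosine and 6 sulfur genes (3.33% of all probes), and by more than 3 in 9 and 4 (0.177%). Between normal skin 3 and 4 the medians were 0.19 and 0.59, between the wild type samples 0.74 and 0.74, and between the hair loss samples 1.48 and 1.46. These are differences between single arrays and have no test.

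Krtap19-2 was among the members farthest apart. It stood at 10.27 and 8.61 in hair loss, 1.56 and 6.84 in normal skin 1 and 2, 9.06 and 9.05 in normal skin 3 and 4, and -2.31 and -2.67 in wild type. Krtap16-3 was at 10.03 and 8.37 in hair loss, 1.04 and 6.56 in Mutant097 normal skin, 8.84 and 8.90 in Mutant113 normal skin, and -1.99 and -2.39 in wild type. In both genes normal skin 1 was more than 5 log2 units below normal skin 2 and still above both wild type samples. Of family 6, Krtap6-2 differed by -5.90 and the other genes by less. Krtap6-1 was at 9.74 and 8.49 in hair loss, 2.69 and 6.40 in Mutant097 normal skin, 9.34 and 8.96 in Mutant113 normal skin, and -2.61 and -2.39 in wild type. Krtap6-5 was at 10.24 and 8.84, then 3.17 and 7.08, then 9.70 and 9.43, and -0.45 and -0.99, in the same order. The high glycine-tyrosine genes at background in normal skin 1 were Krtap19-1, Krtap19-3 and Krtap19-9b. Krtap19-9b, named after its values were seen, was at 3.99 in normal skin 2, and its bound is a difference of -7.90.

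The sulfur gene Krtap14 followed the same pattern, unlike most of its class. It was at 6.26 and 4.72 in hair loss, -3.52 and 2.06 in Mutant097 normal skin, 5.46 and 4.93 in Mutant113 normal skin, and -5.06 and -5.85 in wild type. Krtap11-1, a sulfur gene of the hair cortex, was by contrast at 4.23 and 4.20 in Mutant097 normal skin, with 7.76 and 6.49 in hair loss, 7.10 and 6.51 in Mutant113 normal skin, and -1.37 and -2.21 in wild type. Krtap4-8 was likewise at 4.55 and 4.45 in Mutant097 normal skin. Its other levels were 7.77 and 6.66 in hair loss, 7.64 and 6.74 in Mutant113 normal skin, and 1.23 and 0.64 in wild type. In these 2 genes normal skin 1 and 2 were within 0.10 of each other.

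Most of the genes that were low in normal skin 1 are neighbours in the genome. The RefSeq table places 22 members on chromosome 16, among them all 15 high glycine-tyrosine genes. The 15 consecutive members from Krtap14 to Krtap6-2, of which 13 are high glycine-tyrosine and 2 (Krtap14 and Krtap15) sulfur, were each lower in normal skin 1 than in normal skin 2 by more than 1. With the 4 genes at background in normal skin 1 at their bound, their differences ran from -7.90 to -1.16 with a median of -4.03, against 0.28 for normal skin 3 minus 4. Of the other members on the chromosome, the 6 with a value ran from -0.83 to 0.61 with a median of -0.37. The members outside the run are the sulfur genes Krtap24-1, Krtap26-1, Krtap13-1 and Krtap13 on one side, and on the other the high glycine-tyrosine genes Krtap8-1 and Krtap7-1 with the sulfur gene Krtap11-1. The run was set by these same differences, as the longest stretch of neighbouring members each lower by more than 1. Large differences inside it therefore follow from how it was drawn. Of the high glycine-tyrosine genes, Krtap8-1 (-0.83) and Krtap7-1 (-0.25) fell outside it. Of the sulfur genes, Krtap14 (-5.58) and Krtap15 (-4.03, a bound) fell inside it.

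On chromosome 11, which holds 20 members, all sulfur, the neighbours Krtap31-1 and Krtap31-2 were at background in normal skin 1, and their bounds are differences of -4.82 and -5.30. The other 17 with a value ran from -1.73 to 0.52 with a median of -0.42. Of the 5 members on chromosome 7, Krtap5-4 was at -2.54 and the others between -0.62 and -0.38, and the 3 on chromosome 10 lay between -0.74 and -0.01. These orders were noticed in the data, neighbouring genes are similar in sequence and were measured on the same 2 arrays, and no test was made. The files hold no probe sequences, so how far probes of near-identical copies bind each other's transcripts could not be checked.

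**Figure D4:**
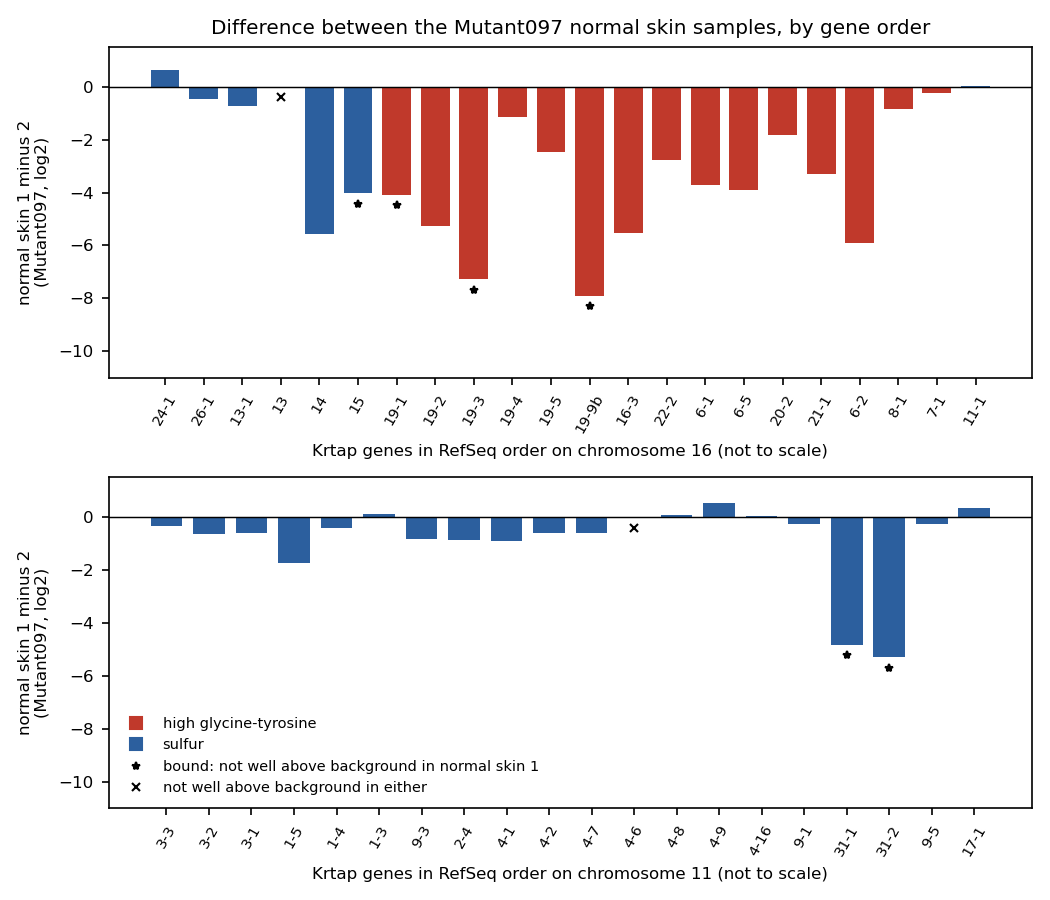
Normal skin 1 minus normal skin 2 (log2, vertical axis) for the Krtap genes of chromosomes 16 and 11 in RefSeq gene order (horizontal axis), coloured by class, with a star where normal skin 1 was not well above background and the bar is a bound, and a cross where both samples were at background. The bars from Krtap14 to Krtap6-2, a run set by these same differences, all fall below -1. Those at either end of chromosome 16 lie between -0.83 and 0.61.

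Other hair gene lists had smaller or opposite median differences between these samples. Hair shaft keratins, the filament proteins that Krtap products embed, had a median difference between normal skin 1 and 2 of -0.13 over 14 genes, 5 of them above 0. The lowest was Krt84, named after its value was seen, at -2.51, and the highest was 1.58. Krt86 was at 4.57 and 5.43 in these samples, Krt33a at 4.65 and 4.78, Krt31 at 3.79 and 3.92, Krt35 at 6.17 and 4.96, and Krt34 at 3.65 and 4.33. Inner root sheath and medulla genes were higher in normal skin 1, with a median of 1.24 over 11 genes. Krt71, a keratin of the inner root sheath, was at 9.09 against 7.98, and Tchh, which encodes the filament-binding trichohyalin, at 7.17 against 5.93. The transcription factors of matrix and cortex had a median of 0.54 over 13 genes, the other shaft structure and crosslinking genes 0.13 over 15, and the proliferation genes 0.73 over 8. Melanocyte markers, which mark pigment cells of growing follicles, were higher in normal skin 1 by a median of 1.57 over 10 genes. Skeletal muscle markers were higher by 0.93 (8 genes) and adipocyte markers by 0.56 (5 genes). The medians were -0.27 for epidermal (6 genes), -0.18 for fibroblast (6), -0.48 for myeloid (4), -0.61 for endothelial (3) and -0.47 for T and NK cell markers (6). The part of any of these in the Krtap values was not tested.

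Normal skin of mutants was compared with normal skin of wild type mice, where genotype cannot be told apart from title number and the hair cycle stage is not given. Krtap transcripts were far higher in the mutant samples, and 23 genes passed the test. Limma called 20 of the 34 sulfur genes tested and 3 of the 15 high glycine-tyrosine genes higher in mutant normal skin, and 0 lower. Over all probes 0.558% were called higher and 0.112% lower. The median difference was 7.02 for sulfur genes and 8.06 for high glycine-tyrosine genes, so the class with fewer calls had the larger median. In 40 of 50 genes (10 high glycine-tyrosine and 30 sulfur) all 4 mutant samples lay above both wild type samples, against 13.6% of probes.

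Many members were at background in wild type, so their fitted differences are not exact and a lower bound is given instead of a fold. This held on both wild type arrays for 29 genes, 7 high glycine-tyrosine and 22 sulfur, and 16 genes were well above background on all 8 arrays. For these, except Krtap4-6 and Krtap13, whose mutant mean lay below it, a fold was computed from the mutant mean against a floor, which on each wild type array is the dimmest signal still marked as well above background, or the probe's own signal where that is brighter. With such genes at their bound, the medians over the classes were 7.51 for high glycine-tyrosine and 5.61 for sulfur genes. Over the genes well above background on all 8 arrays they were 7.79 for 6 high glycine-tyrosine and 5.63 for 10 sulfur genes. Of these, 0 high glycine-tyrosine and 5 sulfur genes were called. The other calls rest on at least 1 wild type value at background.

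Among sulfur genes, Krtap5-2 and Krtap5-5 belong to the ultrahigh sulfur family of the cuticle. Krtap5-2 was at 8.18 and 6.69 in hair loss, 4.30, 4.79, 7.43 and 6.83 in normal skin 1 to 4, and -0.81 and -1.66 in wild type. All mutant samples lay above both wild type samples, and mutant normal skin was 135-fold higher (log2 difference 7.07, SE 0.92, limma adjusted p 0.0229). Its 2 probes ran from 7.07 to 8.45 in this difference, and 2 were called. Krtap5-5 was at 7.81 and 6.29 in hair loss, 3.82, 4.20, 7.05 and 6.39 in normal skin, and -2.84 and -4.20, both at background, in wild type. It was at least 404-fold higher (adjusted p 0.0133). Its 4 probes ran from 0.93 to 8.88 in this difference and 3 were called. Krtap5-3 was at 7.97 and 5.73 in hair loss, 4.10, 4.55, 6.21 and 5.99 in normal skin, and 0.12 and -0.18 in wild type, a 37.9-fold difference (adjusted p 0.0342).

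Krtap11-1, whose levels are given above, was 158-fold higher in mutant normal skin than in wild type (log2 difference 7.30, SE 0.90, limma adjusted p 0.0197, higher in 4 of 4 samples). Its 2 probes ran from 7.30 to 8.47 in this difference, and 2 were called. Krtap4-9 was at 4.86 and 4.11 in hair loss, 2.00, 1.48, 5.22 and 4.05 in normal skin, and -3.56 and -4.53, at background, in wild type. It was at least 94.6-fold higher (adjusted p 0.0268). Krtap4-8, of the same family, was 4.91 higher (SE 0.92) and was not called (adjusted p 0.0708). Krtap14 differed by 7.69 with an error of 2.26 and was not called (adjusted p 0.171). The smallest adjusted p of any member belonged to Krtap3-3 (0.0111, at least 230-fold higher). It was followed by Krtap17-1, a single-member family (0.0125, 176-fold, not exact because wild type 1 was at background). Both were named after their values were seen, as was Krtap3-1, at least 384-fold higher, with levels of 3.31, 3.90, 7.09 and 6.54 in normal skin and -4.89 and -5.66 in wild type.

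The high glycine-tyrosine genes called were Krtap8-1, Krtap21-1 and Krtap22-2, named after their values were seen. Krtap8-1 was at 8.17 and 6.84 in hair loss, 3.50, 4.33, 7.73 and 7.12 in normal skin, and -2.59 and -4.42 in wild type. It was 578-fold higher in mutant normal skin (log2 difference 9.17, SE 1.23, limma adjusted p 0.0259), in 4 of 4 samples. Wild type 2 was at background for Krtap8-1, so this fold is not exact. Krtap22-2 was at 2.10, 4.89, 8.40 and 7.90 in normal skin and at background in wild type, at least 587-fold higher (SE 1.69, adjusted p 0.0471). Krtap21-1 was at 1.42, 4.72, 7.85 and 7.41, at least 423-fold higher (SE 1.66, adjusted p 0.0485). The genes that follow were not called. For Krtap6-1 the difference was 9.35 (SE 1.69, adjusted p 0.0646). For Krtap19-2 it was 9.12 (SE 1.95, adjusted p 0.103), for Krtap16-3 8.53 (SE 2.04, adjusted p 0.126) and for Krtap6-5 8.06 (SE 1.67, adjusted p 0.0952). Krtap20-2 was 182-fold higher at an adjusted p of 0.0505 (difference 7.51, SE 1.24), just outside the threshold. Its 4 probes ran from 3.18 to 9.07, and 0 were called. The 2 probes of Krtap6-1 ran from 8.98 to 9.35 and those of Krtap6-5 from 8.06 to 8.84, with 0 called.

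Some members were already well above background in wild type and were not called. Krtap19-4 was at 7.72 and 5.82 in hair loss, 3.85, 5.01, 5.86 and 6.40 in normal skin, and 5.09 and 3.09 in wild type. The groups overlapped, with a difference of 1.19 (SE 0.87, limma adjusted p 0.516). Krtap19-5 was at 6.72 and 5.31 in hair loss, 0.86, 3.34, 5.52 and 5.61 in normal skin, and 1.92 and 0.26 in wild type, and was not called either (2.75, SE 1.31, adjusted p 0.332). The second probe of Krtap19-5 gave 4.17. Krtap10-10, of the sulfur class, was at 5.83 and 3.66 in hair loss, 2.54, 2.74, 4.27 and 3.96 in normal skin, and 1.71 and 0.98 in wild type. Its mutant samples all lay above the wild type, by 2.03 on average (SE 0.70, adjusted p 0.219), and it was not called.

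**Figure D5:**
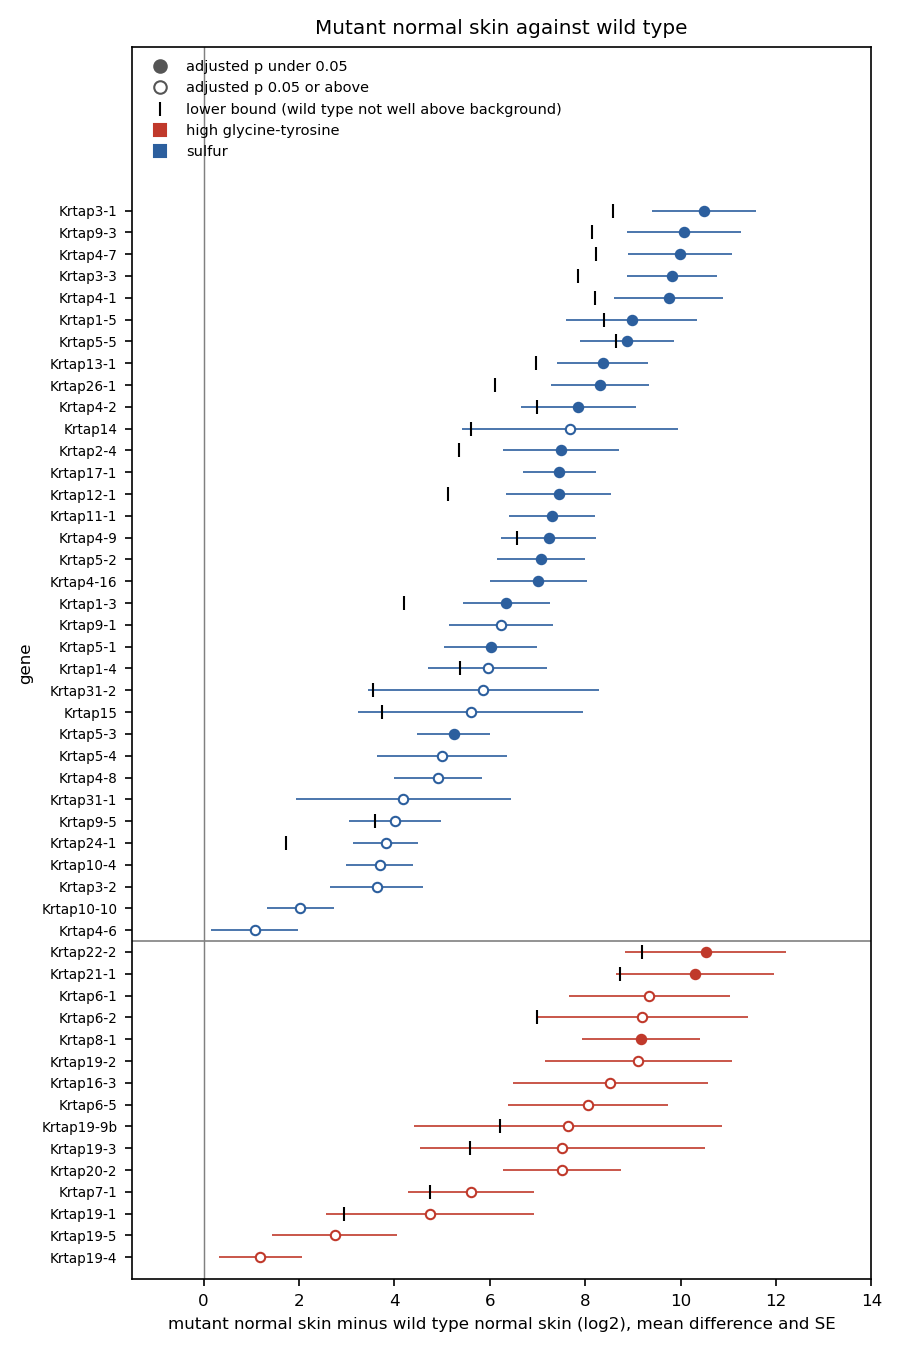
Mutant normal skin minus wild type (log2, with the SE of the limma fit) for the 49 Krtap genes tested, by class, filled where the adjusted p was under 0.05 and with a tick at the lower bound for genes at background in wild type. Sulfur genes hold 20 of the 23 filled points, and the high glycine-tyrosine genes have similar differences with wider errors.

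The count of calls in this comparison rested on single samples. It was 37 without normal skin 1 (12 high glycine-tyrosine and 25 sulfur), 15 without hair loss 2 or normal skin 3, 14 without hair loss 1, 8 without normal skin 4 and 0 without either wild type sample. It was 41 with slide row as a block, which compares wild type with Mutant113 normal skin only, 14 with a fit on the 2 groups alone or with another background correction, and 0 with samples of 1 number and group averaged.

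Hair loss skin was also set against wild type, with which mutant normal skin was compared too, so the comparisons share their controls. Group and slide row cannot be told apart between hair loss (row 1) and wild type (row 2). Here 29 genes were called higher by limma, 5 high glycine-tyrosine and 24 sulfur, against 0.978% of all probes, and 0 lower (0.41% of all probes). The median differences were 11.40 for high glycine-tyrosine and 8.67 for sulfur genes, and 10.13 and 7.78 with genes at background in wild type at their bound. The 5 high glycine-tyrosine genes were Krtap6-1 (limma adjusted p 0.0398), Krtap8-1 (0.0183), Krtap20-2 (0.0318), Krtap21-1 (0.0301) and Krtap22-2 (0.0299), each higher in both hair loss samples than in both wild type samples. Of the 4 probes of Krtap20-2, 3 were called. The largest bound among these was 3082-fold, for Krtap22-2. A slide row block does not compare hair loss with wild type directly. It adds hair loss minus Mutant097 normal skin to Mutant113 normal skin minus wild type. The count was 0 without hair loss 1 or without either wild type sample, and with samples of 1 number and group averaged, and 46 with slide row as a block or with a fit on the 2 groups alone.

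Other hair genes were called in part. Of the hair shaft keratins, 10 of 14 on the array were called higher in mutant normal skin than in wild type, with a median of 6.18. Krt33a was at 4.65, 4.78, 7.66 and 7.09 in normal skin 1 to 4 and at -3.33 and -4.47 in wild type (limma adjusted p 0.0108). Of the inner root sheath and medulla genes 9 of 11 were called higher, with a median of 7.69, and of the other shaft structure and crosslinking genes 5 of 15, with a median of 3.29. Prr9, a proline-rich gene, was at 7.05, 5.96, 8.65 and 7.86 in normal skin and 1.06 and 1.34 in wild type. In the transcription factor list 1 of 13 was called, Hoxc13, which encodes a homeodomain factor needed for hair shaft formation and was named after its value was seen. It was at 2.48, 1.36, 2.82 and 1.88 in normal skin and -0.50 and -1.20 in wild type (adjusted p 0.0487). Proliferation genes had 0 of 7 tested called and a median of 1.92. The medians over all probes tested were near 0 in each comparison, and of these lists 0 genes were called lower, or in either direction for hair loss against mutant normal skin.

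Within numbers, the median lesion effect of the hair shaft keratins was 3.86 in Mutant097 and -0.43 in Mutant113, that of inner root sheath genes 2.13 and -0.34, and that of other shaft genes 2.48 and -0.27. These lists thus had a large positive median in Mutant097 beside a small negative one in Mutant113, like the Krtap classes. The transcription factor list, at 0.85 and -0.01, and the proliferation list, at 0.03 and 0.58, did not show this pattern. Differences between Mutant113 and Mutant097 normal skin were 2.74, 1.37, 1.70, 0.01 and -1.11 for the same 5 lists. None of these list medians has a test.

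Markers of other cells were read beside these values. Between mutant normal skin and wild type 0 genes of the 8 marker lists were called by limma. Between hair loss and wild type the muscle markers Myl1 (-2.55, adjusted p 0.0434) and Mylpf (-2.60, adjusted p 0.0475) were called lower and the melanocyte marker Kit (1.89, adjusted p 0.0291) higher, all named after their values were seen. The median of the 8 muscle markers there was -2.21, with 0 above 0. Epidermal markers, which mark the tissue as skin, were well above background in 6 of 6 genes on every array, with sample medians of 7.20 to 7.53 in mutant normal skin, 7.65 to 7.84 in hair loss and 6.69 to 7.15 in wild type. Melanocyte markers (10 genes) had sample medians of 0.36 to 1.86 in mutant normal skin, 1.75 to 1.77 in hair loss and -1.30 to -0.70 in wild type. Skeletal muscle markers (8 genes, all well above background) were at 5.80 to 7.17, 4.76 to 5.22 and 6.59 to 7.05 in the same order. Fibroblast markers (6 genes) were at 6.45 to 8.31, 6.98 to 7.93 and 8.14 to 8.98, and myeloid markers (4 genes) at 2.48 to 2.95, 2.73 to 3.05 and 3.30 to 3.70. Adipocyte markers (5 genes) were at 4.33 to 4.67, 4.0 to 4.91 and 4.27 to 4.45, and endothelial markers (3 genes) at 0.59 to 0.70, 0.40 to 0.89 and 0.35 to 0.72. T and NK cell markers (6 genes, 3 of them tested) were at -1.65 to -1.12, -1.07 to -0.84 and -1.55 to -1.46. Their part in the Krtap differences was not tested.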

How the data were processed

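RNA of 8 skin samples was measured on single-colour arrays. Per the file headers, each spot's intensity was corrected for background and spatial trend by Feature Extraction, version 11.5.1.1 per the submitters' processing notes. The deposited matrix holds log2 values, equal to the log2 of that intensity minus a constant per array, which puts the 75th percentile near 0. RefSeq accessions were matched to symbols in a RefSeq gene table. A probe was well above background when most of its unflagged spots carried the Feature Extraction mark, and was tested when this held on at least 2 of 8 arrays.

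Limma 3.58.1 (R 4.3.3) fitted 1 model of 3 groups to the 8 arrays, with 5 residual degrees of freedom and 2.69 from the prior. All tests are two-sided, with Benjamini-Hochberg adjustment over 30471 probes and calls below 0.05. Group and title number together were the levels of another model. The number of arrays limits the precision. In simulated data for mutant normal skin against wild type, the fit called 72.0% of probes changed by 2 log2 units and 93.5% of those changed by 4. For hair loss against mutant normal skin it called 62.5% and 92.5%. The changed probes were drawn from all probes tested, whose median SD in mutant normal skin was 0.25. That SD was 3.02 for high glycine-tyrosine and 1.68 for sulfur genes, so these shares do not apply to the Krtap genes.

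Genes were named by rule: per class, the 5 with the highest mean, the largest and the smallest hair loss difference and the 2 highest in wild type. The 3 largest and 3 smallest differences from wild type among genes well above background on all arrays were added, and at most 5 genes per other list. Members and lists were chosen with earlier results of these data known. Alternatives were other background corrections, normalizations, filters, blocks and left-out samples. Normexp used median spot signals.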

Additional observations from a re-analysis of the deposited data

Results flagged for a closer look

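The lesion effect, hair loss minus normal skin, had large positive class medians in Mutant097 and small negative ones in Mutant113. The Mutant113 medians were -0.58 (high glycine-tyrosine) and -0.45 (sulfur). Median gaps between samples of 1 group were 0.19 and 0.59 for normal skin 3 and 4. They were 0.74 and 0.74 for wild type and 1.48 and 1.46 for hair loss. Whether the Mutant113 effect differs from 0 was not tested. In the high glycine-tyrosine class the median was higher in the hair loss sample than in both normal skin samples of Mutant097 and lower than in both of Mutant113, and the median difference of the effects was 6.32 log2 units (5.85 with genes at background in normal skin 1 at their bound). In the sulfur class the same held, with 4.25. The difference of the class medians was not tested, and each number has 1 hair loss sample. For single genes the difference was tested with limma, and 0 Krtap genes were called. Hair loss and normal skin were in different slide rows in Mutant113 only. The difference of the effects therefore cannot be told apart from slide row.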

How the results depend on the processing

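Values below are counts of called genes or class medians. No result reversed under the alternatives run. Over the named single genes 630 alternatives kept side and direction, 62 lost and 43 gained a call. Hair loss against mutant normal skin kept 0 calls throughout, also with title number as a replicate block, in which 0 Krtap genes were called; same-number samples correlated by 0.02 to 0.20 in their deviations, and 2 numbers are too few to settle whether the number pairs samples. The slide row block gave medians of 4.65 and 3.11. Leaving out 1 sample gave medians of 1.1 to 3.23 (high glycine-tyrosine) and 0.98 to 2.44 (sulfur). For mutant normal skin against wild type the calls in all, high glycine-tyrosine and sulfur were 23, 3 and 20. Normexp gave 14 in all and 12 sulfur, with a sulfur median of 4.23. No filter gave 1 high glycine-tyrosine call and the strict filter 5. A fit on 2 groups gave 14, 1 and 13. The slide row block gave 41, 10 and 31, with a high glycine-tyrosine median of 10.96, and 48.5% of all calls were higher, against 83.3%. Averaging per number and group gave 0, 0 and 0. Leaving out 1 sample gave 0 to 37, 0 to 12 and 0 to 25. For hair loss against wild type they were 29, 5 and 24. Normexp gave 8 high glycine-tyrosine calls and medians of 8.42 and 6.08, the strict filter gave 10 and the mean of probes 3. A fit on 2 groups gave 46 and 14. The row block gave 46 and 14, medians of 16.22 and 11.53, and 52.9% of all calls higher, against 70.4%. It adds hair loss minus Mutant097 normal skin to Mutant113 normal skin minus wild type, and is not a direct comparison of hair loss with wild type. Averaging gave 0, 0 and 0. Leaving out 1 sample gave 0 to 42, 0 to 12 and 0 to 30. No filter made 92.1% and 87.8% of all calls higher in the 2 comparisons with wild type and moved the median of all probes by -0.30 and -0.36. Normexp gave 35 calls for the difference of lesion effects and 43 for Mutant113 against Mutant097 normal skin, quantile normalization 11 for the latter. Leaving out 1 normal skin sample, chosen after seeing the data, gave 0 to 11 and 0 to 14. Where a left-out sample left 1 in its group, that sample was assumed to vary like the others. The cause of these changes was not tested. The class check by protein composition was not run. Depth enters as signal over background: 29 genes were at background in wild type.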
